A study of Mus musculus with 6 samples.

Results

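The small leucine-rich proteoglycans (SLRPs) are secreted proteins of the extracellular matrix, and 9 genes of the family were examined in mouse bone marrow mesenchymal stromal cells (BMSCs). The genes were taken by symbol and were Bgn, Dcn, Lum, Fmod, Ogn, Omd, Aspn, Prelp and Podn, that is 9 of the 54532 genes counted. All 9 passed the filter on low counts, which left 14624 genes for testing. The study asked how a low dose of nickel changes gene expression while BMSCs, marrow cells that attach to plastic and can become osteoblasts, undergo osteogenic differentiation. Wild-type primary cells were kept for 7 days in osteogenic medium, which held β-glycerophosphate at 10 mM, dexamethasone at 100 nM and ascorbic acid at 50 μg/mL, either without nickel (control) or with 0.1 μM nickel ions (Ni). Each group had 3 libraries, described as independent biological replicates, and neither the age nor the sex of the mice is stated in the sources used here. The dexamethasone concentration is the one in the sample labels, and the methods of the study give another. The labels also give 10% fetal bovine serum for both groups.

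An SLRP has a core of leucine-rich repeats that folds into a curved solenoid, and most members bind collagen fibrils and influence how thick and how regular the fibrils become. Many also bind growth factors such as TGF-β and BMPs, and some carry chondroitin, dermatan or keratan sulfate chains. In bone, biglycan is abundant in the matrix laid down by osteoblasts, and osteomodulin (osteoadherin) is best known from mineralized tissue. The family is sorted into classes by sequence, and several members sit side by side in the genome.

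The 6 libraries held between 16101033 and 18642504 counts. The osteoblast marker list was expressed in every library. Its summed levels were 5361 to 12002 CPM (counts scaled to library size) in control and 11300 to 16466 CPM in Ni. Within the list Sost, a marker of osteocytes, was at 0 throughout. Dmp1, Phex and Mepe of the same list had 604 to 1815, 34 to 272 and 26 to 229 counts per library. General stromal markers summed to 12179 to 18069 CPM in control and 18422 to 19968 CPM in Ni. Macrophage markers summed to 30170 to 35147 CPM in control and 30016 to 30663 CPM in Ni, abundant for cultures labelled as mesenchymal stem cells. Control 3 lay nearer to the Ni libraries than the other controls did in the osteoblast and stromal sums. In bulk RNA, a change in the number of cells of a type and a change in RNA per cell cannot be told apart.

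Gene positions are given in GRCm38. Aspn (ENSMUSG00000021388, chr13:49544443-49567565), Omd (ENSMUSG00000048368, chr13:49582462-49592822) and Ogn (ENSMUSG00000021390, chr13:49608046-49624501) lie in a row on the plus strand, 14896 and 15223 bases apart, with Ecm2, another leucine-rich repeat gene, 11653 bases before Aspn. The whole row lies inside Cenpp, a centromere protein gene on the minus strand, whose exons share 7 bases with Aspn and 0 with Omd and Ogn, and which had 14 to 36 counts per library. Dcn (ENSMUSG00000019929, chr10:97479609-97518143) and Lum (ENSMUSG00000036446, chr10:97565128-97572703) are neighbours on the plus strand, 46984 bases apart. Fmod (ENSMUSG00000041559, chr1:134037254-134048277, plus strand) and Prelp (ENSMUSG00000041577, chr1:133910304-133921414, minus strand) are 115839 bases apart. Prelp shares 350 exon bases, 9.68% of its own, with the antisense gene Gm15851, which had 0 to 4 counts per library. Bgn (ENSMUSG00000031375, chrX:73483602-73495933) stands alone on the plus strand. Podn (ENSMUSG00000028600, chr4:108014791-108096445, minus strand) overlaps Scp2, Gm23354 and Mir6397 without shared exon bases.

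RefSeq promoter windows (GRCm38.p6) were at hand for 7 of the 9 genes, all except Dcn and Lum. The 250 bases before the RefSeq start are shown for the 3 neighbours on chromosome 13, since their Ni values differed from one another, and for Fmod and Prelp, whose values moved most alike over the libraries. The bases run in the direction of transcription, and capitals mark matches to 4 motifs. The RUNX core was searched as TGTGGT on either strand. The TATA box was searched on the coding strand alone as TATAAA. The remaining motifs, both searched on either strand, were the pentamer CCAAT and, as the GC box that binds Sp1, the hexamer GGGCGG.
Aspn, chr13:49544193-49544442, plus strand: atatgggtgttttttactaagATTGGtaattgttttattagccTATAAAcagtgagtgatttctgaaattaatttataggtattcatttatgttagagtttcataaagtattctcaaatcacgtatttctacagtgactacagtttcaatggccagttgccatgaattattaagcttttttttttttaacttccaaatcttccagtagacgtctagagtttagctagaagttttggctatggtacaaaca
Omd, chr13:49582212-49582461, plus strand: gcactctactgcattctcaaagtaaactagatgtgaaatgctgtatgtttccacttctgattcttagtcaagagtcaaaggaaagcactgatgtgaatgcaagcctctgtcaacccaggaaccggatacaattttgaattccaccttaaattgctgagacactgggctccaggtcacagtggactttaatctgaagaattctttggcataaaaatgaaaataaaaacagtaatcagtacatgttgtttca
Ogn, chr13:49607765-49608014, plus strand: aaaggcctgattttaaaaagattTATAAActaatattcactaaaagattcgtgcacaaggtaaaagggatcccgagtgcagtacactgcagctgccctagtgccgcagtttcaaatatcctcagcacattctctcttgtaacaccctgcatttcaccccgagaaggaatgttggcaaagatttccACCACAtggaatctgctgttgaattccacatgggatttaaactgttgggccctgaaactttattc
Fmod, chr1:134037004-134037253, plus strand: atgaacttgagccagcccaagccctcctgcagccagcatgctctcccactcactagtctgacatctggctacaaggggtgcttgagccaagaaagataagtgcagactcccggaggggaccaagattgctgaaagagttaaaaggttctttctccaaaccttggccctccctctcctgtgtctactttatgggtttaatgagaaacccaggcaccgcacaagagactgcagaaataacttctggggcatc
Prelp, chr1:133921402-133921651, minus strand: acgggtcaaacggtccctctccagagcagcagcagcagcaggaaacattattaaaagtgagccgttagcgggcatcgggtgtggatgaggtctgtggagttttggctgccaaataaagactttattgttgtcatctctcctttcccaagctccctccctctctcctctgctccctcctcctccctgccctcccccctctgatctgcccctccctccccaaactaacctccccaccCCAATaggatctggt

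Of the 7 genes with a promoter window, only Ogn held the RUNX core, the letters bound by the osteoblast factor Runx2. The match started 65 bases before the RefSeq start from which these windows are counted. Of 32851 promoter windows, 14.0% hold this motif. TATAAA stood 227 bases before the start of Ogn and 207 before that of Aspn, against 7.59% of windows. The CCAAT box of Prelp began 15 bases and that of Aspn 229 bases before the start, against 33.8% of windows, and no motif matched in Omd or Fmod. GC boxes, held by 32.7% of windows, were found in Bgn at 34, 10 and 6 bases before the start, the last 2 overlapping, and in a window of Podn at 202 and 70 bases. Matches to AP-1 (TGACTCA on either strand, 4.46% of windows) and to the SMAD box (GTCTAGAC, 0.167% of windows) were not found in any of the 7 genes. GC content of the 250 bases was 30.0% for Aspn, 38.4% for Omd, 42.0% for Ogn, 51.2% for Fmod, 55.6% for Prelp and 64.4% for Bgn. A match is a description of letters and not a bound site.

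The family was expressed at very unequal levels. FPKM (fragments scaled by gene length and by library depth), the deposited measure used here to compare levels between genes, put Bgn highest in all 6 libraries, followed by Ogn, Fmod and Prelp. Lum and Aspn shared the fifth and sixth places and changed order between libraries, and Omd, Dcn and Podn were seventh, eighth and ninth in every library. By mean FPKM over the libraries Bgn ranked 147 and Ogn 280 among the 14624 genes tested, whereas Podn ranked 11159. The deposited gene length joins the exons of all transcripts of a gene, which lowers FPKM for genes with many transcripts. With the length of the principal transcript in its place, a setting chosen after the data were seen, the control level of Dcn went from 12.8 to 42.5 FPKM and its place moved up to the fourth, and Bgn went from 226 to 570 FPKM. Comparisons of a gene with itself across libraries do not depend on this length.

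In Ni, 7 of the 9 genes were higher than in control at an unadjusted p under 0.05 by edgeR's quasi-likelihood test (Bgn, Dcn, Aspn, Fmod, Lum, Prelp and Omd), 0 were lower, and Ogn and Podn did not pass. Over all genes tested, 13.4% had an unadjusted p under 0.05, 7.59% with higher and 5.83% with lower levels in Ni. After Benjamini-Hochberg adjustment over all 14624 genes, 0 of the 9 and 0.0% of all genes were under 0.05, and the lowest adjusted p of any gene was 0.185. The median log2 fold change was 0.72 over the 9 genes and -0.01 over all genes tested. Fmod was the one gene of the 9 with every Ni library above every control library, a pattern seen in 7.97% of genes tested. In this fit of all 6 libraries, none of the differences of the 9 genes was therefore a call at the adjusted threshold.

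**Figure D1:**
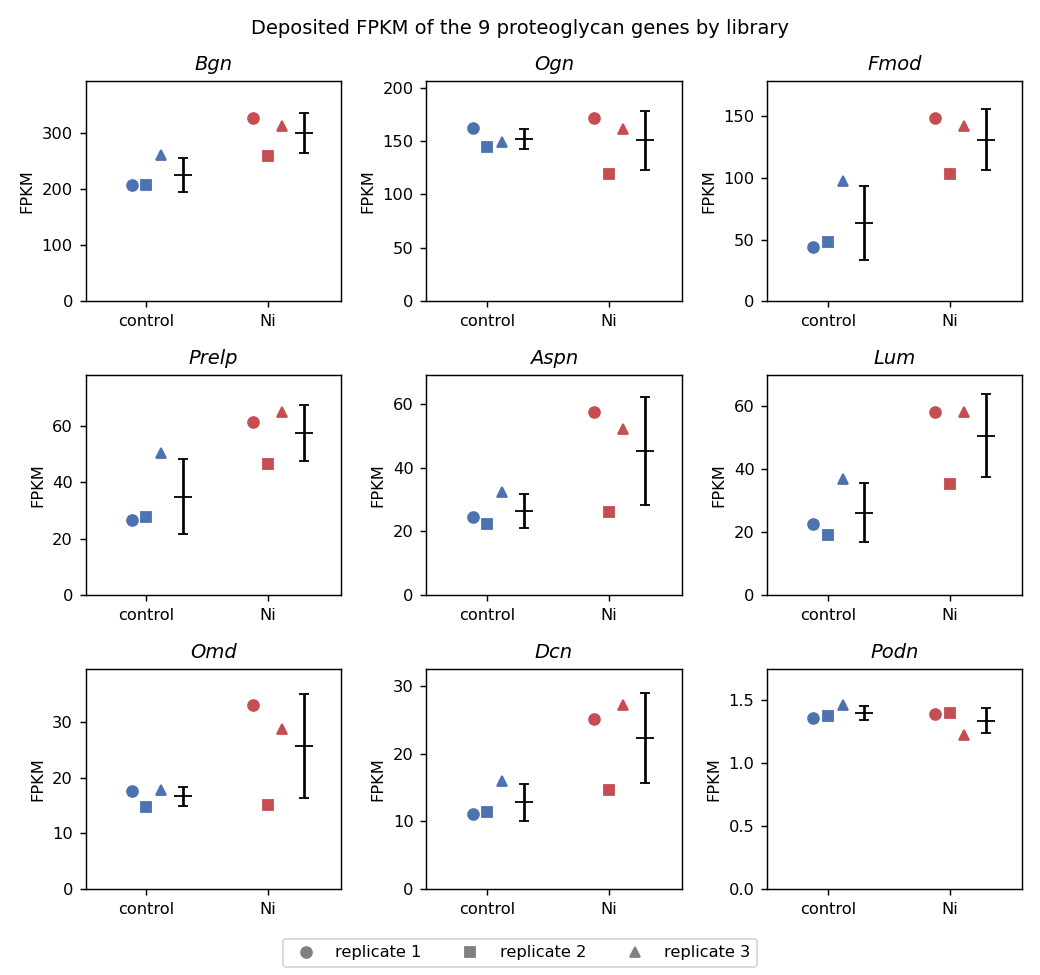
Deposited FPKM (linear axis from 0) of each gene in the 3 control (blue) and 3 Ni (red) libraries. Symbols mark the replicate number, and the bar is the mean with its SD. Control 3 is the highest control in 8 of the 9 panels, Ni 2 is the lowest Ni library in 8 of 9, and the groups stand apart only for Fmod.

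Of the class I genes, Bgn encodes biglycan, which carries chondroitin or dermatan sulfate chains. Its FPKM was 209, 208 and 261 in control and 328, 259.7 and 314 in Ni, that is 226 ± 30.7 against 300.4 ± 36.0 (SD, n = 3 each). Ni 2 lay just below control 3, and the other Ni libraries lay above all controls. The log2 fold change was 0.41 (SE 0.14, 95% interval 0.09 to 0.73, 1.33-fold), with an edgeR adjusted p of 0.321.

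Dcn encodes decorin, a collagen-fibril proteoglycan with a single glycosaminoglycan chain, and had 11.1, 11.4 and 15.9 FPKM in control and 25.1, 14.7 and 27.1 FPKM in Ni. Ni 1 and Ni 3 were above every control, and Ni 2 fell between the controls. Its means were 12.8 ± 2.72 and 22.3 ± 6.69 FPKM (SD, n = 3 each), with a log2 fold change of 0.80 (SE 0.24, 95% interval 0.24 to 1.35) and an edgeR adjusted p of 0.306.

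Aspn encodes asporin, which lacks a glycosaminoglycan chain, has an aspartate-rich stretch and binds collagen and TGF-β. It had 24.5, 22.3 and 32.5 FPKM in control and 57.7, 26.0 and 52.3 FPKM in Ni. Again Ni 2 lay among the controls. Its log2 fold change was 0.77 (SE 0.30, 95% interval 0.08 to 1.47, 1.71-fold), and the edgeR adjusted p was 0.350.

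Of the class II genes, Fmod encodes fibromodulin, which binds type I collagen and carries keratan sulfate and sulfated tyrosines. It had 44.2, 48.2 and 97.9 FPKM in control and 149, 103 and 142 FPKM in Ni. Control 3, just under the level of Ni 2, stood far above the other controls, but the groups did not overlap (exact permutation test, two-sided, p = 0.1, the smallest that 3 against 3 allows). Its log2 fold change was the largest of the 9, at 1.04 (SE 0.32, 95% interval 0.30 to 1.78, 2.06-fold), with an edgeR adjusted p of 0.307.

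Lum encodes lumican, which binds the same region of collagen as fibromodulin, and had 22.5, 19.0 and 36.8 FPKM in control and 58.1, 35.2 and 58.1 FPKM in Ni. Ni 2 was just below control 3. The means were 26.1 ± 9.44 and 50.5 ± 13.2 FPKM (SD, n = 3 each). Lum had a log2 fold change of 0.95 (SE 0.29, 95% interval 0.27 to 1.62, 1.93-fold), with an edgeR adjusted p of 0.308.

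Prelp encodes a heparin-binding member that links basement membranes to collagen, and had 26.5, 27.8 and 50.3 FPKM in control and 61.3, 46.3 and 65.1 FPKM in Ni. It repeated the pattern of Fmod except that Ni 2 was below control 3. Prelp had a log2 fold change of 0.72 (SE 0.26, 95% interval 0.13 to 1.31, 1.65-fold), with an edgeR adjusted p of 0.334.

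Omd encodes osteomodulin, a keratan sulfate proteoglycan of bone that binds cells through integrins. It had 17.6, 14.7 and 17.8 FPKM in control and 33.1, 15.2 and 28.8 FPKM in Ni. Here control 3 was not set apart from the other controls, and Ni 2 lay within them. The log2 fold change was 0.62 (SE 0.26, 95% interval 0.02 to 1.21, 1.53-fold), and the edgeR adjusted p was 0.367.

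Ogn, the class III gene for osteoglycin (mimecan), showed no such difference. Its FPKM was 162, 144 and 149 in control and 172, 119 and 161 in Ni, with means of 152 ± 9.42 and 151 ± 27.9 (SD, n = 3 each). The Ni libraries lay on both sides of the controls. The log2 fold change was -0.02 (SE 0.14) with a 95% interval of -0.33 to 0.30, which leaves room for changes of up to 1.23-fold upward, and the edgeR adjusted p was 0.976.

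Podn encodes podocan, of class V, and was barely expressed, with 94 to 110 counts per library. Its FPKM was 1.36, 1.38 and 1.46 in control and 1.39, 1.40 and 1.22 in Ni. The groups overlapped, and the log2 fold change was -0.07 (SE 0.18, 95% interval -0.46 to 0.33), with an edgeR adjusted p of 0.906.

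**Figure D2:**
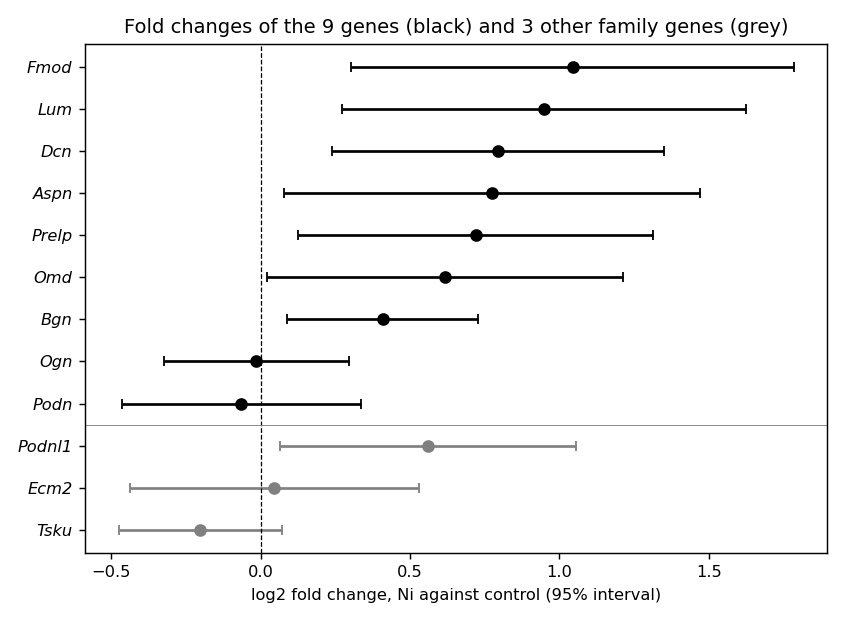
Log2 fold changes of Ni against control (edgeR, x axis) with 95% intervals for the 9 genes (black) and the 3 other family genes that passed the filter (grey). The intervals of 7 of the 9 genes lie above 0, that of Omd only just (lower limit 0.02), while those of Ogn and Podn span 0. The log2 fold changes of the 7 run from 0.41 for Bgn to 1.04 for Fmod.

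Control 3 was the highest control and Ni 2 the lowest Ni library for each of the 7 genes that were higher in Ni. With each library left out in turn, Dcn, Lum and Fmod were at an unadjusted p under 0.05 in all 6 fits, 3 of the 9 genes. The share of all genes tested that passed in all 6 fits is not given here, so this count has no background. The count was 3 without control 1, control 2, Ni 1 or Ni 3, against 6.27%, 5.79%, 6.6% and 6.96% of all genes tested in those fits. It was 5 without control 3, against 27.4% of genes, and 7 without Ni 2, against 16.3%. Without control 3, 4 genes (Bgn, Lum, Fmod and Prelp) were also under an adjusted p of 0.05 by edgeR, against 15.2% of all genes, and the fold change of Fmod went from 1.04 to 1.51 on the log2 scale. Without Ni 1, the fold change of Omd went to 0.40.

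The tool and the filter changed which genes passed. DESeq2's Wald test put 2 genes under an adjusted p of 0.05 (Dcn at 0.0210 and Lum at 0.0104), against 1.83% of the genes it gave an adjusted p. With no filter on low counts, edgeR put 3 genes (Bgn, Dcn and Omd) under an adjusted p of 0.05, against 3.97% of genes, but 4 rather than 7 under an unadjusted p of 0.05, against 11.8%. Lum, Fmod and Aspn were those of the 7 that no longer passed, with edgeR adjusted p values of 0.431, 0.474 and 0.578.

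**Figure D3:**
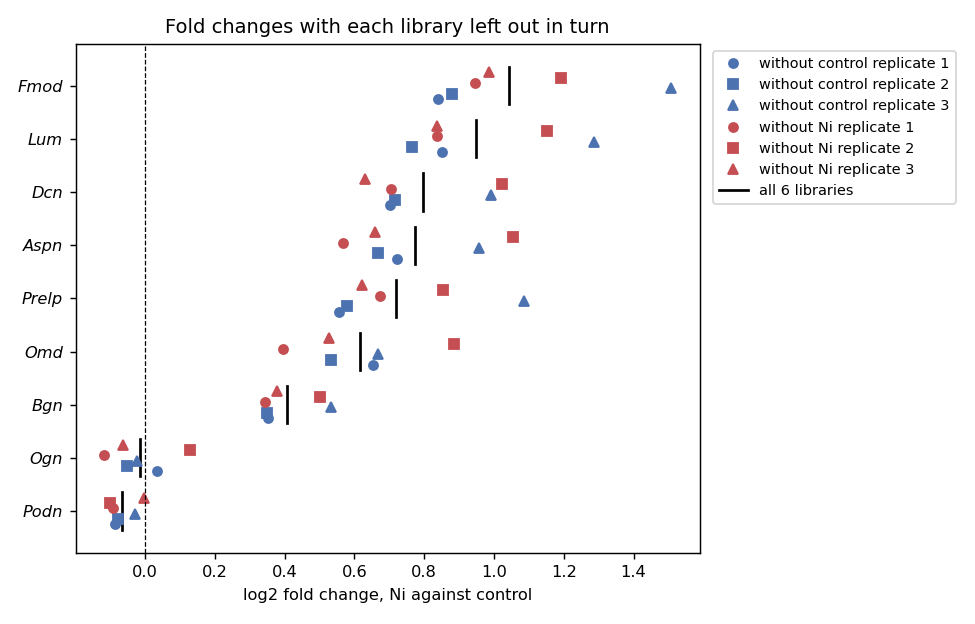
Log2 fold change of each gene (x axis) with all 6 libraries (black line) and with each library left out in turn (blue, a control left out; red, a Ni library left out). For the 7 higher genes all points lie above 0, and the points without control 3 or without Ni 2 lie farthest to the right; for Ogn the points run from -0.12 to 0.13.

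Summed over the 9 genes, FPKM was 519, 497 and 663 in control and 885, 620.3 and 849 in Ni. This was 0.167% of all FPKM in control and 0.242% in Ni, with Ni 2 again below control 3. The make-up of the sum comes from the same FPKM values and is not a result separate from the fold changes. Where other genes rise, the share of a gene that stays level falls. Ogn made up 31.3%, 29.0% and 22.4% of it in control and 19.4%, 19.2% and 19.0% in Ni, so that every Ni library was below every control (27.6% ± 4.60 against 19.2% ± 0.226, SD, n = 3 each, exact permutation test, two-sided, p = 0.1, the smallest possible). Fmod made up 8.52%, 9.70% and 14.8% in control and 16.8%, 16.6% and 16.7% in Ni, and the share of Lum was 4.57% ± 0.888 in control and 6.36% ± 0.607 in Ni (SD, n = 3 each), both without overlap between groups. For the other 6 genes the shares overlapped, and Bgn held 40.5% ± 1.21 in control and 38.6% ± 2.81 in Ni (SD, n = 3 each). The same 3 genes stood apart with the principal transcript length.

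**Figure D4:**
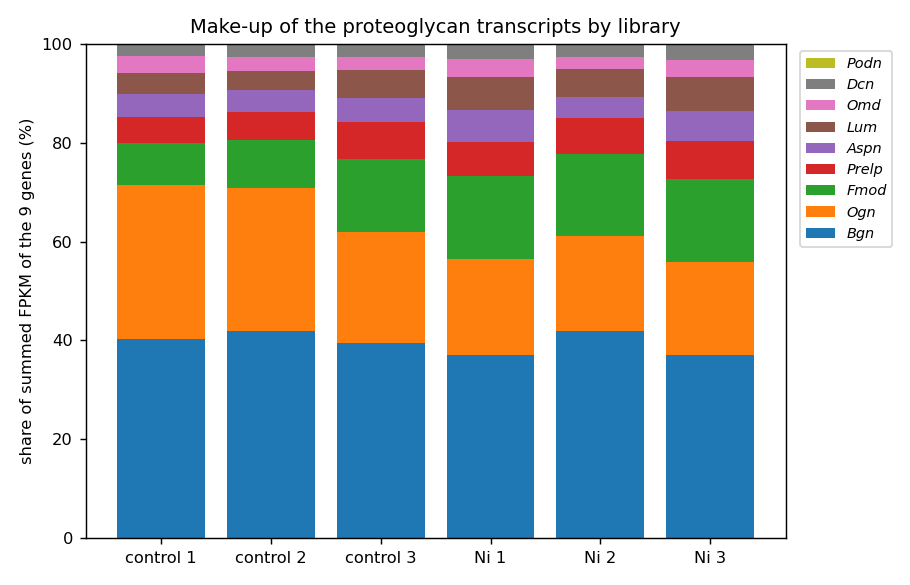
Share of each gene in the summed FPKM of the 9 genes (%, stacked bars from 0 to 100) in each library. The Ogn share is 22.4% to 31.3% in control and 19.0% to 19.4% in Ni, and the Fmod share is 8.52% to 14.8% in control and 16.6% to 16.8% in Ni.

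Ratios within a library do not move with its depth, and 3 were examined. The Omd to Ogn ratio of FPKM, of neighbouring genes in the chromosome 13 row, was 0.108, 0.102 and 0.119 in control and 0.192, 0.127 and 0.179 in Ni. All Ni libraries were above all controls, by 0.58 on the log2 scale (exact permutation test, two-sided, p = 0.1, the smallest possible). The Bgn to Dcn ratio was 18.8, 18.3 and 16.4 in control and 13.1, 17.7 and 11.6 in Ni, and the Fmod to Lum ratio was 1.97, 2.53 and 2.66 in control and 2.56, 2.92 and 2.44 in Ni. Both overlapped, with log2 differences of -0.36 and 0.15 (exact permutation test, two-sided, p = 0.2 and p = 0.5). After Benjamini-Hochberg adjustment over the 3 ratios, the lowest exact permutation p was 0.3.

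Levels over the 6 libraries moved together to different degrees, given here as Pearson's r of log2 CPM over control and Ni libraries together. Each r therefore includes the difference between the groups. Fmod and Prelp on chromosome 1 had r = 0.992 and Bgn and Lum, on different chromosomes, r = 0.991. Dcn and its neighbour Lum had r = 0.969. In the chromosome 13 row Aspn and Omd had r = 0.971, but Ogn had r = 0.713 with Omd and 0.578 with Aspn, and 0.099 with Fmod. Podn had negative r with each of the other 8 genes.

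By the same measure, the most alike of the genes with a mean of at least 10 CPM was P4ha1, a collagen prolyl hydroxylase subunit, for Fmod (r = 0.999). It was Mest for Lum, Ccdc80 for Prelp and Lclat1 for Dcn (each r = 0.999), and Rab27b for Bgn, Itfg1 for Aspn and Pafah1b2 for Ogn (each r = 0.997). For Omd it was Serinc5 (r = 0.996) and for Podn Lrp11 (r = 0.991). These were picked as the highest of 9478 or 9479 genes, and up to 69 genes (for Fmod) came within 0.01 of the top value.

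Of the tested osteoblast markers 14 of 15 were higher in Ni at an unadjusted p under 0.05, with a median log2 fold change of 1.13, and of the general stromal markers 9 of 25, with a median of 0.34, against 7.59% of all genes tested. At the same threshold, cartilage and tendon markers were higher in 6 of 8, with summed levels of 153 to 261 CPM in control and 301 to 352 CPM in Ni and Col9a1 at 0. Macrophage markers were lower at it in 5 of 18 with a median of -0.20, endothelial markers in 1 of 8 (55.2 to 80.4 CPM in control, 50.2 to 53.5 CPM in Ni) and adipocyte markers in 1 of 7 (852 to 1181 CPM in control, 834 to 946 CPM in Ni), against 5.83% of all genes tested. None of these markers was under an adjusted p of 0.05 by edgeR. The part of these cell types in the values of the 9 genes was not tested beyond the within-library differences that follow.

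Each gene was set against the mean log2 CPM of a marker list in the same library. The general stromal list itself was 0.37 higher in Ni on the log2 scale, and relative to it Fmod was 0.75 higher and Podn 0.44 lower, each without overlap between groups, while Bgn (0.04 higher) and the other 6 genes overlapped. The osteoblast list was 1.15 higher in Ni, and relative to it Bgn (-0.74), Dcn (-0.39), Prelp (-0.38), Ogn (-1.18) and Podn (-1.22) were lower in all Ni libraries than in any control. The list itself was higher in every Ni library than in any control, so a gene that stays level comes out lower in this comparison. Ogn and Podn had log2 fold changes of only -0.02 and -0.07 of their own. The share of all genes tested that would be lower relative to this list is not given here. Fmod (-0.03), Lum (-0.18), Aspn (-0.44) and Omd (-0.61) overlapped relative to the osteoblast list. Over these 18 comparisons the lowest exact permutation p (two-sided) was 0.1, the smallest possible, and 0.257 after Benjamini-Hochberg adjustment. With the median of the list in place of its mean, the differences relative to the osteoblast list were -0.03 for Dcn and -0.03 for Prelp (exact permutation test, two-sided, p = 0.8 and p = 1), so neither was then apart from the controls. Bgn (-0.39), Ogn (-0.83) and Podn (-0.86) kept p = 0.1 in this exact permutation test. With the median, Fmod was 0.33 and Lum 0.17 higher in Ni relative to the osteoblast list, and the Bgn difference relative to the stromal list was -0.10. Ogn relative to the stromal list went from -0.40 with the mean to -0.54 with the median (exact permutation test, two-sided, p = 0.3 and p = 0.1).

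**Figure D5:**
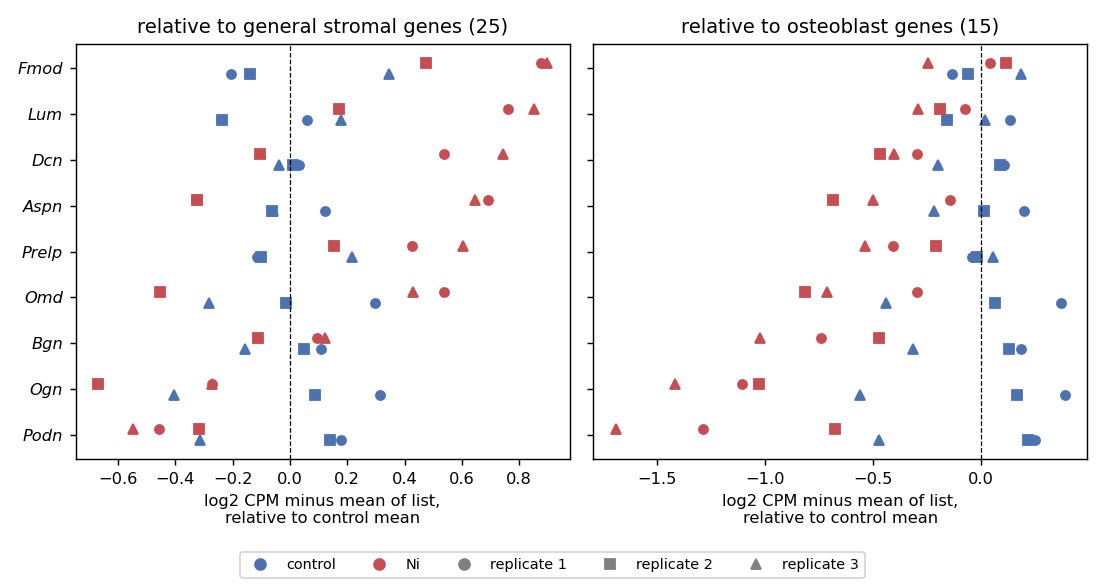
Log2 CPM of each gene minus the mean log2 CPM of 25 general stromal genes (left) or 15 osteoblast genes (right) in the same library, shifted so that the control mean is 0 (blue, control; red, Ni; symbols, replicate number). Relative to the stromal genes Fmod stands above all controls in Ni, and relative to the osteoblast genes Ogn and Podn are farthest below, at -1.18 and -1.22.

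Of 8 other leucine-rich repeat genes of the family, 3 passed the filter. Podnl1, the podocan-like class V gene, had 506, 543 and 900 counts in control and 1092, 974 and 999 in Ni, with a log2 fold change of 0.56 (SE 0.22, edgeR adjusted p = 0.346), while Podn itself was not higher. Ecm2, beside Aspn, had a log2 fold change of 0.04 (SE 0.22, edgeR adjusted p = 0.951), and Tsku, tsukushi, one of -0.20 (SE 0.12, edgeR adjusted p = 0.487). Kera and Epyc, which follow Lum on chromosome 10 and are known from cornea and cartilage, were at 0 counts in every library. Optc, 2304 bases from Prelp, had 0, 1 and 17 counts in control and 4, 5 and 12 in Ni, and Chad and Nyx had at most 7 counts in any library.

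Of 11 genes for collagens that SLRPs bind, 10 were higher and 1 lower in Ni at an unadjusted p under 0.05, with a median log2 fold change of 0.66, against 7.59% higher and 5.83% lower over all genes tested. Col1a1 was at 682, 762 and 1288 FPKM in control and 2185, 1747 and 2060 FPKM in Ni, without overlap, a log2 fold change of 1.13 (SE 0.24, edgeR adjusted p = 0.212). Col1a2 had a log2 fold change of 0.97 (SE 0.21, edgeR adjusted p = 0.210) and Col5a2, of a collagen that helps start fibrils, 0.90 (SE 0.22, edgeR adjusted p = 0.249). The lower gene was Col14a1, named after its values were seen, a fibril-associated collagen with a log2 fold change of -0.92 (SE 0.37, edgeR adjusted p = 0.350).

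Enzymes that cut SLRPs or collagen propeptides were counted together with the enhancer protein Pcolce. At an unadjusted p under 0.05, 5 of these 10 genes were higher and 1 of 10 lower, against 7.59% and 5.83% of all genes. Their median log2 fold change was 0.45. They included Bmp1, the protease that trims pro-biglycan and procollagen (0.55, SE 0.17), its enhancer Pcolce (0.46, SE 0.12) and Mmp2 (0.51, SE 0.16), with edgeR adjusted p values of 0.306, 0.249 and 0.299. Other matrix and cell-surface proteoglycans were higher at this threshold in 7 of 18 and lower in 0, with a median of 0.34, led by Cspg4 (1.21, SE 0.21), the glypican Gpc1 (0.84, SE 0.17) and brevican, Bcan (1.42, SE 0.30), with edgeR adjusted p values of 0.185, 0.208 and 0.208. Bcan was at a low level, with 31, 23 and 36 counts in control and 87, 59 and 110 in Ni.

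Counts for the genes that build the sugar chains are read against the same 7.59% higher and 5.83% lower of all genes. Of the 7 genes for the linker that joins chains to core proteins, 1 was higher at an unadjusted p under 0.05 (Pxylp1, 0.75, SE 0.28) and 1 lower (Xylt2, which adds the first xylose, -0.42, SE 0.16), and Xylt1, the other xylosyltransferase gene, had 0.51 (SE 0.35) without passing. Of 16 chondroitin and dermatan sulfate genes, 4 were higher and 2 lower by the same threshold, with a median log2 fold change of 0.20. The sulfotransferase Chst13 had 11, 10 and 16 counts in control and 63, 30 and 57 in Ni (1.93, SE 0.39, edgeR adjusted p = 0.208), and the chain-building genes Chpf and Chsy3 had 0.48 and 0.69. Of 9 genes for keratan sulfate and tyrosine sulfation, 0 passed in either direction, with values of 0.83 (SE 0.45) for Chst1, 0.16 (SE 0.11) for Tpst2 and -0.09 (SE 0.09) for B4galt1.

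Of 15 signals and receptors that SLRPs bind, 3 were higher and 3 lower by the same threshold, against 7.59% and 5.83% of all genes, with a median log2 fold change of 0.04. Higher were Wisp1, a matricellular protein that binds biglycan and decorin (0.81, SE 0.19), Tgfb3 (0.39, SE 0.13) and Ctgf. Lower were Bmp4 (-0.35, SE 0.10), Tlr2, a receptor for soluble biglycan that macrophages also carry (-0.29, SE 0.11), and Met. Ctgf and Met were named after their values were seen and had log2 fold changes of 0.40 and -1.57. The values of Tgfb1 (-0.26, SE 0.15), Tgfb2 (0.41, SE 0.18) and Tlr4 (-0.07, SE 0.11) did not pass the unadjusted threshold. None of the genes in these lists was under an adjusted p of 0.05 by edgeR.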

How the data were processed

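RNA from 6 libraries was made into cDNA with a kit that the labels do not describe as strand-specific. The authors deposited raw counts of reads per gene for 54532 genes and FPKM values of the same genes, which equal the deposited counts divided by gene length and by 1 factor per library (largest relative deviation 3.29e-07). The labels name the build GRCm38; aligner, counting tool and strand setting are not given in the sources used here. Totals were 16101033 to 18642504 counts.

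Genes were filtered by filterByExpr, normalized by TMM and tested by the robust quasi-likelihood test of edgeR 4.0.16 (R 4.3.3), with Benjamini-Hochberg adjustment over 14624 genes. This procedure was tested on simulated data. Each standard error was taken from the coefficient and its F statistic. CPM for lists and correlations used a prior count of 2 on the log2 scale. Alternatives used DESeq2 1.42.0, limma 3.58.1 on log2(FPKM + 1) and log2(FPKM + 0.1), other scalings and filters, and each library left out in turn. Levels between genes were compared as FPKM, and ratios and shares by exact permutation tests (SciPy 1.17.1). Exon overlap and transcript lengths came from GENCODE M21.

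The 9 genes and all lists were chosen with earlier results of these data known. Named genes are the 9, the other family genes, the 3 genes with the smallest p of each pathway list, Col1a1, Col1a2, Tgfb1, Tgfb2, Tgfb3, Bmp1, Tlr2 and Tlr4, the gene most alike to each of the 9, and genes overlapping or beside them.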

Additional observations from a re-analysis of the deposited data

How the results depend on the processing

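The median log2 fold change of the 9 genes stayed positive in all alternatives (0.70 to 0.73, and 0.57 to 0.96 with a library left out). The number of the 9 genes under an adjusted p of 0.05 was 0 in the edgeR fit. It was 2 with DESeq2 (against 1.83% of genes) and 3 with no filter on low counts (against 3.97%). The replicate block gave 3 (Dcn, Lum and Prelp, against 2.15% of genes). Leaving a library out gave 0 to 4, the 4 without control 3 against 15.2% of genes. The number at an unadjusted p under 0.05 was 7 in the edgeR fit, against 13.4% of genes, and 4 with no filter, against 11.8%. Both limma fits gave 6, and their share of all genes is not given here. Leaving a library out gave 3 to 7, against 5.79% to 27.4% of genes. The replicate numbers were not taken to pair the samples, since deviations of same-numbered libraries correlated at 0.01, 0.26 and 0.14. Relative to the general stromal genes Bgn turned from 0.04 to -0.10 with the list's median and ran from -0.044 to 0.11 with a library left out, and Omd ran from -0.012 to 0.48. Relative to the osteoblast genes, with the list's median Lum turned to 0.17 and Fmod to 0.33, Dcn went from -0.39 to -0.03 and Prelp from -0.38 to -0.03, and Fmod ran from -0.10 to 0.079 with a library left out. The log2 fold change of Ogn ran from -0.12 to 0.13. The cause of these shifts was not tested. With the principal transcript length, the control levels of Bgn, Dcn and Podn were 570, 42.5 and 1.88 FPKM. With 3 libraries a group, no exact permutation test can go below 0.1.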
